A study of Mus musculus with 16 samples.

Results

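Ep400 and 9 of its partners in the TIP60 (p400) chromatin complex were followed through 16 RNA libraries from mouse dorsal root ganglia. The 10 genes were picked by symbol (Ep400, Kat5, Trrap, Ruvbl1, Ruvbl2, Brd8, Dmap1, Epc1, Ing3 and Yeats4) out of 53379 gene IDs, and the question was whether the partners follow Ep400 across RNA fractions and pools. Ep400 was included because of its own pattern in these libraries, so its values are given as a description with no test. The partners were chosen for their place in the complex, with earlier results of these data known, and were tested. All 10 genes passed the filter on low values, which 16099 genes passed.

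The dorsal root ganglia hold the cell bodies of sensory neurons that supply the body, together with satellite glia, Schwann cells and vascular and immune cells. The mice were naive Nav1.8Cre/Rosa26fsTRAP littermates aged 8 to 12 weeks, in which Cre driven from the Scn10a gene puts a green fluorescent protein tag on the ribosomal protein L10a in Nav1.8 neurons, mostly nociceptors. Ganglia of 3 mice of 1 sex made up each pool, and each pool gave an IP library (RNA pulled down with the tagged ribosomes) and an IN library (total RNA of the same ganglia). The groups were female IP, male IP, female IN and male IN, with 4 pools in each. All mice carried these alleles on a C57BL/6J background, and none was injured or treated.

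The values were TPM, a transcript abundance per length of transcript, which sum to 1000000 in each library and keep no record of read depth. Nuclear protein-coding genes took 45.0% to 79.9% of the TPM in IP libraries and 9.60% to 13.4% in IN libraries, so TPM were rescaled by the median of ratios over the tested genes. The result is called scaled TPM here. Log2 values are log2(scaled TPM + 1), a scale that understates the change of low genes. Fold values are taken back from log2 differences on this scale and are not ratios of mean scaled TPM. An adjusted p is the limma p adjusted by Benjamini-Hochberg over all 16099 genes with a threshold of 0.05. Of 11 marker lists, all 8 tested nociceptor genes were called higher in IP, while every tested gene of the lists for large-diameter neurons, satellite glia, Schwann cells, macrophages, endothelium, fibroblasts, erythrocytes, skeletal muscle, nuclear noncoding RNA and mitochondrial RNA was called lower. The IP library of female pool 2 stood apart, with the lowest coding share (45.0%) and the highest summed mitochondrial level of the IP libraries (1409 scaled TPM, against 57.3 to 309.4 in the male IP libraries).

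The TIP60 complex is a large chromatin-modifying assembly that combines histone acetylation with exchange of histone H2A variants. Ep400 is its SWI2/SNF2-type motor, which uses ATP to place H2A.Z in nucleosomes, and Kat5 is its acetyltransferase for histones H4 and H2A. The other subunits hold these activities together, bind transcription factors or read histone marks, and several of them also serve the SRCAP, INO80 and SAGA complexes. The complex is known for gene activation and DNA repair, and in Drosophila neurons Tip60 has been studied in axonal transport and memory.

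The promoter windows of the members that mark both ends of the results are shown first. Ep400 and Trrap were lower in IP, and Kat5 and Yeats4 were higher. The sequences come from RefSeq (GRCm38.p6), run 5′ to 3′ on the gene's own strand and cover 250 bases before and 50 bases after a gene start. RefSeq entries were matched for 8 of the 10 members, in 10 windows, with Brd8 and Epc1 unmatched.
Ep400, chr5:110770668-110770967, minus strand: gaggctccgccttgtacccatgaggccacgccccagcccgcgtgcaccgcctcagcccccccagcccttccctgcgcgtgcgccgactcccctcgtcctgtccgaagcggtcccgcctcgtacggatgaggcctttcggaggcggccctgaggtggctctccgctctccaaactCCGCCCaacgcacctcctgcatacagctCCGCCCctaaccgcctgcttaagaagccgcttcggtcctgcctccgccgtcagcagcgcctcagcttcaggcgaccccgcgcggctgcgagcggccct
Trrap, chr5:144768544-144768843, plus strand: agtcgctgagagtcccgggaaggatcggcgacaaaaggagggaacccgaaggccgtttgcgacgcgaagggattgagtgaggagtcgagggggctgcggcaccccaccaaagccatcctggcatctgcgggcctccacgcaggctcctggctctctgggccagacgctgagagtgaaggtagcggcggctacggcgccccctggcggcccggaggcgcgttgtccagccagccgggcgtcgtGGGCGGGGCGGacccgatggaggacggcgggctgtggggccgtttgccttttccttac
Kat5, chr19:5610045-5610344, minus strand: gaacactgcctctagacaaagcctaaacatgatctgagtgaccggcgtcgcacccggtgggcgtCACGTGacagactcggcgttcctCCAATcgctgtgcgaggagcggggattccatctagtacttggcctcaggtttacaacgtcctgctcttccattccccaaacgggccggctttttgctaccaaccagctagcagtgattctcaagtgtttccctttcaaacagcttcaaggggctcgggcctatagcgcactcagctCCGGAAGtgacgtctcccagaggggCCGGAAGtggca
Yeats4, chr10:117224458-117224757, minus strand: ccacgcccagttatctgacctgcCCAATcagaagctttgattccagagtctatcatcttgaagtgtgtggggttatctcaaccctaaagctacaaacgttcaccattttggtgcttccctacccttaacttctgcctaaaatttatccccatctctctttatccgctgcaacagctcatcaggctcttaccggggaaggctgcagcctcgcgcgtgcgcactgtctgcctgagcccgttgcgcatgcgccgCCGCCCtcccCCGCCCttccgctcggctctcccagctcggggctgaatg
Capitals mark matches to any of 4 short motifs on either strand. They were the GC box (GGGCGG), the CCAAT box (CCAAT), an ETS motif (CCGGAAG) and an E-box (CACGTG). The Ep400 window held 2 GC boxes, both on the opposite strand, and no other motif of the set. Trrap likewise held only GC boxes, 2 that overlap each other. The Kat5 window shown held 2 ETS motifs, an E-box and a CCAAT box, and a second Kat5 window, not shown, held 3 GC boxes and none of the other motifs; the Yeats4 window held 2 GC boxes and a CCAAT box. Of all 32851 promoter windows of this length, 35.7% held the GC box, 37.4% the CCAAT box, 8.86% the ETS motif and 7.15% the E-box. A match is a description of letters and no evidence of binding.

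Ep400 was lower in IP than in IN, and the order of the sexes was opposite in the 2 fractions. In female IP libraries, Ep400 (on the minus strand of chromosome 5, 110664373 to 110770717, GRCm38) had 10.7, 11.4, 11.2 and 8.65 scaled TPM in pools 1 to 4, against 7.15, 7.56, 7.47 and 7.78 in male IP libraries. In IN, the female libraries had 13.6, 14.06, 14.04 and 12.8 scaled TPM, against 18.8, 19.9, 21.6 and 19.9 in male libraries. All 4 female IP values lay above all 4 male IP values, and all 4 female IN values lay below all 4 male IN values. The means were 10.5 ± 1.27 in female IP and 7.49 ± 0.264 in male IP, and 13.6 ± 0.572 in female IN and 20.1 ± 1.151 in male IN (SD, n = 4 each). On the log2 scale the female minus male difference of Ep400 was 0.43 in IP (1.35-fold) and −0.53 in IN (1.44-fold toward males).

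**Figure D1:**
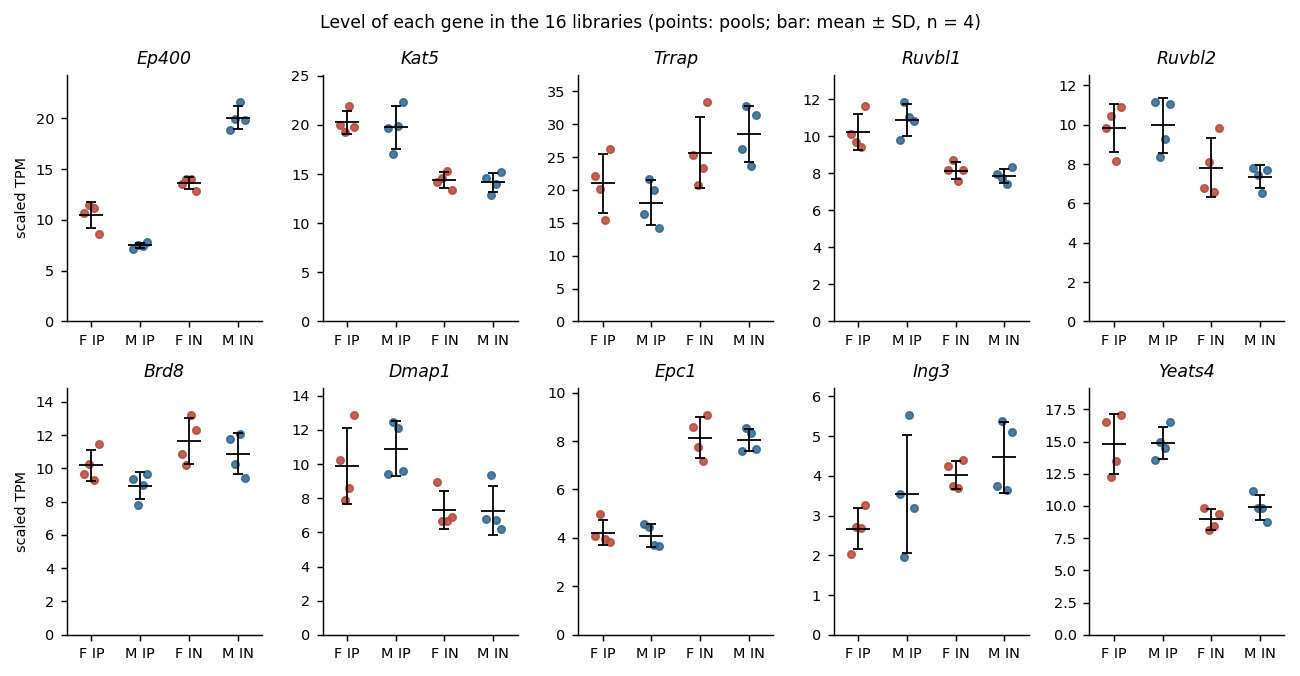
Level of the 10 members in each library (scaled TPM, vertical axis) by group, with 1 point per pool and a bar at the group mean ± SD. The Ep400 points of female IP (8.65 to 11.4) lie above male IP (7.15 to 7.78) and those of female IN (12.8 to 14.06) below male IN (18.8 to 21.6). The female and male points of each partner overlap in both fractions. Of all tested genes, 1.66% had no overlap in IP and 2.83% in IN, in either direction.

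Within pools, the log2 IP minus IN difference of Ep400 was −0.31, −0.27, −0.30 and −0.52 in the female pools, against −1.28, −1.29, −1.42 and −1.25 in the male pools. Every pool was lower in IP, and no female pool came within the male range. The mean was −0.35 ± 0.11 in females and −1.31 ± 0.07 in males (SD, n = 4 each), a difference between the sexes of 0.96 on the log2 scale. Over both sexes the mean was −0.83, or 0.562-fold on that scale. The mean levels of Ep400 were 8.998 scaled TPM in IP and 16.8 in IN.

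The scaling decides part of this description. In deposited TPM, Ep400 had 26.7, 18.9, 29.4 and 16.4 in female IP and 17.7, 14.99, 16.4 and 20.9 in male IP, so the sexes overlapped in IP. Deposited TPM of Ep400 in IN were 5.34, 6.91, 6.98 and 6.83 in females, against 9.07, 8.37, 8.11 and 9.26 in males, which did not overlap. The within-pool IP minus IN difference also stayed apart by sex in deposited TPM (1.152 to 2.126 in females, 0.771 to 1.09 in males), on a scale where the median gene moved by 1.84 toward IP. The non-overlap of the sexes in IP and in IN was kept by the scaling over coding genes, quantile normalization, the smaller pseudocount and the unfiltered table.

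A ratio of Ep400 to its partners needs no scaling between libraries. Ep400 divided by the geometric mean of the 9 partners was 1.14, 1.23, 1.28 and 0.798 in female IP, against 0.746, 0.824, 0.724 and 0.813 in male IP. These overlap through female pool 4 alone. In IN the same ratio was 1.41, 1.58, 1.58 and 1.27 in females, against 1.995, 1.98, 2.40 and 2.10 in males, with no overlap. Set against Kat5 alone, Ep400 was at 0.519 ± 0.065 of its TPM in female IP and 0.382 ± 0.042 in male IP, and at 0.949 ± 0.021 in female IN and 1.42 ± 0.144 in male IN (SD, n = 4 each). This ratio overlapped between the sexes in IP (0.437 to 0.593 in females, 0.348 to 0.443 in males) and not in IN. Set against Trrap, the sexes overlapped in both fractions, at 0.330 to 0.723 in female IP and 0.349 to 0.547 in male IP, and at 0.385 to 0.680 in female IN and 0.609 to 0.916 in male IN.

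Of 11 marker lists, 2 also had summed levels that did not overlap between the sexes in IN. The summed large-diameter neuron markers (6 genes) ranged over 441.5 to 498.7 scaled TPM in female IN, against 536.7 to 559.0 in male IN. The summed satellite glia markers (5 genes) ranged over 764.9 to 940.2 scaled TPM in female IN, against 953.7 to 1089 in male IN. Taken singly, only Pvalb and Nefh of the first list and Apoe of the second had sexes that did not overlap, and the other markers of both lists overlapped. Of the Schwann list, only Prx did not overlap (124.9 to 140.4 scaled TPM in female IN, 142.1 to 193.5 in male IN). Females lay below males in IN without overlap for 1.5% of all tested genes. Limma called none of these markers between the sexes in IN (adjusted p = 0.717 for Pvalb and 0.962 for Nefh, Apoe and Prx). Apoe averaged 546.0 scaled TPM in female IN and 686.4 in male IN. Fabp7 (148.4 and 145.4) and Glul (140.7 and 138.7) were slightly higher in females, and Kcnj10 (12.3 and 12.9) and Cdh19 (28.2 and 30.3) in males. The glia sum thus mostly follows Apoe. No marker of the large-diameter or glia list was at 0. The sums of the other 9 lists overlapped between the sexes in IN, and the sums of all 11 overlapped in IP. The part of these markers in the Ep400 difference was not tested. In bulk RNA, fewer cells of a type and less RNA per cell cannot be told apart.

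All 9 partners differed between IP and IN by limma, 5 of them higher and 4 lower, in a comparison in which 79.4% of all tested genes were called (40.5% higher and 38.9% lower). With quantile normalization, 7935 genes were higher and 5044 lower in IP, against 6514 and 6269 on the scale used here. A count of called members near such a background is not a result about the members, so the direction and size of each are given below. The median partner difference was 0.34 on the log2 scale, against 0.02 over all tested genes and −0.83 for Ep400.

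Kat5, the catalytic acetyltransferase, rose in IP. Its levels in female IP were 20.0, 19.3, 21.9 and 19.8 scaled TPM and in male IP 19.7, 17.1, 19.9 and 22.3, against 14.2, 14.6, 15.3 and 13.4 in female IN and 14.6, 12.9, 13.98 and 15.2 in male IN. The 8 IP libraries all lay above the 8 IN libraries. The difference was 0.46 ± 0.04 on the log2 scale (SE; 1.37-fold; limma adjusted p = 8.01e-07), with the same sign in 8 of 8 pools. Kat5 lies on chromosome 19 (5603017 to 5610094) and overlaps Rnaseh2c on the opposite strand, which was also higher in IP (0.69, limma adjusted p = 0.000685). Whether counting used strand is not stated, so reads over the stretch the 2 genes share cannot be told apart.

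Trrap, the large scaffold related to phosphoinositide kinases that receives activators such as Myc, fell in IP. It had 22.2, 20.1, 15.5 and 26.2 scaled TPM in female IP and 16.3, 21.7, 20.0 and 14.2 in male IP, against 25.3, 20.7, 23.4 and 33.4 in female IN and 26.2, 32.8, 23.6 and 31.4 in male IN. The ranges of the fractions overlapped, but IP was the lower in 8 of 8 pools. The log2 difference was −0.46 ± 0.10 (SE; limma adjusted p = 0.00209), 1.37-fold lower in IP.

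Ruvbl1 and Ruvbl2, paired AAA+ ATPases shared with INO80, SRCAP and the R2TP chaperone, both rose. Ruvbl1 averaged 10.5 ± 0.919 scaled TPM in IP libraries and 8.00 ± 0.419 in IN libraries (SD, n = 8 each), a log2 difference of 0.35 ± 0.05 (SE; limma adjusted p = 0.000123). Ruvbl2 averaged 9.89 ± 1.20 in IP libraries and 7.59 ± 1.08 in IN libraries (SD, n = 8 each), a log2 difference of 0.34 ± 0.05 (SE; limma adjusted p = 0.000179). Both were higher in IP in 8 of 8 pools, with within-pool differences of 0.14 to 0.55 for Ruvbl1 and 0.14 to 0.48 for Ruvbl2 that were not largest in the same pools, and the IP and IN ranges of Ruvbl1 did not overlap. Ruvbl2 overlaps Gys1 on the opposite strand, which was called higher as well (0.37, limma adjusted p = 0.000218).

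The subunits that read histone marks did not move one way. Yeats4, whose YEATS domain binds acylated histone H3, had 16.5, 12.3, 13.5 and 17.0 scaled TPM in female IP and 13.5, 14.99, 14.5 and 16.5 in male IP, against 9.82, 8.12, 8.47 and 9.41 in female IN and 11.1, 9.85, 9.85 and 8.78 in male IN. No IP value of Yeats4 fell within the IN range, and its log2 difference of 0.60 ± 0.06 (SE; limma adjusted p = 7.42e-06) was the largest rise among the members. Brd8, the bromodomain subunit, fell by 0.21 ± 0.06 (SE; limma adjusted p = 0.0107), with means of 9.57 ± 1.05 scaled TPM in IP libraries and 11.3 ± 1.27 in IN libraries (SD, n = 8 each), and was lower in IP in 6 of 8 pools. Ing3, whose PHD finger binds methylated histone H3, was the lowest member, at 3.11 ± 1.13 scaled TPM in IP libraries and 4.24 ± 0.674 in IN libraries (SD, n = 8 each). Its difference of −0.38 ± 0.15 (SE; limma adjusted p = 0.0334) was lower in 7 of 8 pools.

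The falls of Brd8 and Ing3 depend on the processing. With quantile normalization the Brd8 difference was −0.11 (limma adjusted p = 0.129) and the Ing3 difference was 0.01 (limma adjusted p = 0.969). Without the filter neither was called, at limma adjusted p = 0.423 for Brd8 and 0.206 for Ing3. The Ing3 call was also lost when female pool 1, 2, 3 or 4 or male pool 2 or 4 was left out, with limma adjusted p between 0.0522 and 0.0832 and differences between −0.39 and −0.28. It was lost as well with scaling over coding genes (−0.34, limma adjusted p = 0.0542).

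Of the structural subunits, Epc1 and Dmap1 went opposite ways. Epc1, the enhancer-of-polycomb protein that joins Kat5 to the rest of the complex, had 4.09, 4.99, 3.97 and 3.85 scaled TPM in female IP and 4.57, 4.47, 3.71 and 3.65 in male IP, against 8.57, 7.74, 7.17 and 9.07 in female IN and 7.60, 8.54, 8.33 and 7.69 in male IN. Every IP value was below every IN value. The log2 difference of −0.82 ± 0.06 (SE; limma adjusted p = 8.28e-07) made Epc1 1.76-fold lower in IP, the largest fall among the partners. Dmap1, named for its binding of the DNA methyltransferase Dnmt1, averaged 10.4 ± 1.87 scaled TPM in IP libraries and 7.28 ± 1.19 in IN libraries (SD, n = 8 each) and rose by 0.46 ± 0.08 (SE; limma adjusted p = 0.000306).

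**Figure D2:**
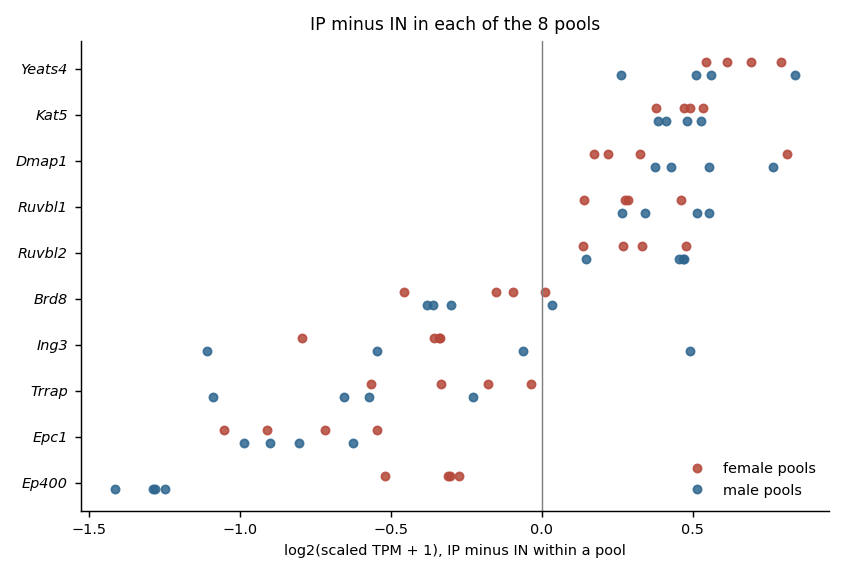
Within-pool IP minus IN difference (log2, horizontal axis) of the 10 members, with 1 point per pool, female and male pools apart. Yeats4, Kat5, Dmap1, Ruvbl1 and Ruvbl2 lie above 0 in all 8 pools and Trrap, Epc1 and Ep400 below 0 in all 8. Among the members, the female and male pools do not overlap in Ep400 alone, which was included for its own pattern. Of all tested genes, 1.59% had no overlap of the sexes in this difference, in either direction.

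Without any scaling, deposited TPM put all 10 members above 0 in IP against IN, as they did for 14623 of the 15558 genes called. Set against the median gene on that unscaled scale, Brd8 was at 0.02 ± 0.12 and Trrap at −0.11 ± 0.14 (SE), each within its SE of 0, and the other members kept their direction. Of the partners, 4 of 9 had IP and IN libraries that did not overlap (48.4% of all tested genes), Kat5, Ruvbl1 and Yeats4 higher (22.4% of all tested genes) and Epc1 lower (26% of all tested genes).

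The order of the members by level changed with the fraction. In IP, Kat5 (20.0 scaled TPM) and Trrap (19.5) came first, then Yeats4 (14.9), Ruvbl1 (10.5), Dmap1 (10.4), Ruvbl2 (9.89), Brd8 (9.57), Ep400 (8.998), Epc1 (4.16) and Ing3 (3.11). In IN, Trrap (27.1) and Ep400 (16.8) led, ahead of Kat5 (14.3), Brd8 (11.3), Yeats4 (9.43), Epc1 (8.09), Ruvbl1 (8.00), Ruvbl2 (7.59), Dmap1 (7.28) and Ing3 (4.24). TPM are per length, so these levels can be set side by side. Neighbours in these orders overlapped in range except Yeats4 with Ruvbl1 and Ep400 with Epc1 in IP, and Dmap1 with Ing3 in IN. By sex, the mean of Ep400 ranked 4 of 10 in female IP and 8 of 10 in male IP, and 3 of 10 in female IN and 2 of 10 in male IN.

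The partners were then compared between the sexes. No partner was called between females and males in IP, where limma called 8 genes in all (0.0497%), or in IN, where it called 13 (0.0808%). None had an unadjusted p under 0.05 in either fraction, the lowest being 0.101 for Brd8 in IP and 0.158 for Yeats4 in IN. The partner differences, female minus male, ran between −0.26 for Ing3 and 0.20 for Trrap in IP and between −0.15 for Trrap and 0.09 for Brd8 in IN. With so few genes called in the whole table, a count of 0 among 9 is no result about the partners, and their values are given for their size. Trrap had the signs of Ep400 in both fractions, with 95% intervals of −0.19 to 0.60 in IP and −0.50 to 0.19 in IN.

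**Figure D3:**
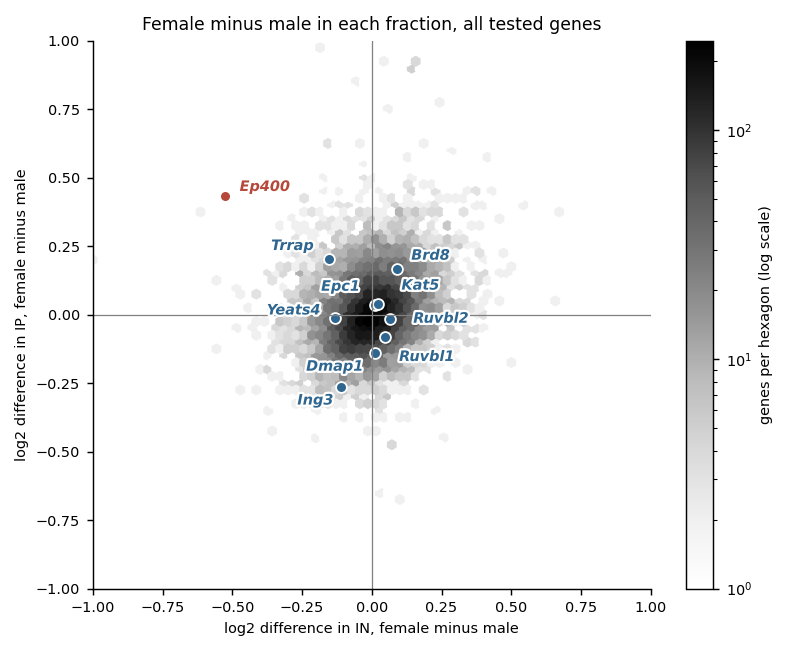
Female minus male difference in IN (log2, horizontal axis) against that in IP (log2, vertical axis) for all tested genes as shaded hexagons, with the members as points. Ep400 lies at −0.53 and 0.43, and the 9 partners lie between −0.15 and 0.09 across and between −0.26 and 0.20 upward. The axes end at 1 either way, which leaves 69 of 16099 genes outside.

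The difference between the sexes in the IP minus IN step uses the same libraries again. Limma called 3 genes (0.0186%) and no partner, with no partner under an unadjusted p of 0.05. Trrap had the largest value of the partners, 0.36 ± 0.18 (SE; 95% interval −0.06 to 0.77; unadjusted p = 0.0843, limma adjusted p = 1). The other 8 lay between −0.15 and 0.12.

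**Figure D4:**
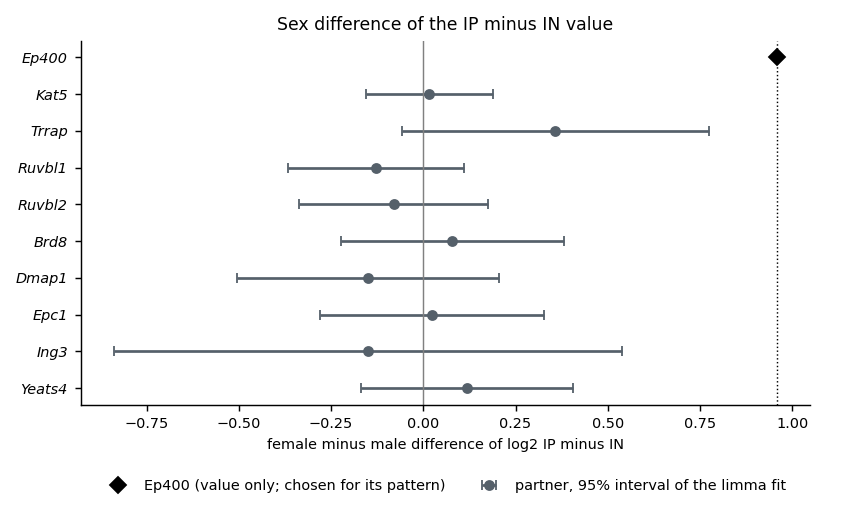
Female minus male difference of the within-pool IP minus IN value (log2, horizontal axis) for the 10 members, with 95% intervals from limma for the 9 partners and none for Ep400. Ep400, marked by a dotted line, stands at 0.96 as a description, and the partners lie between −0.15 and 0.36.

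Females lay below males in IN without overlap for Ep400 and for 1.5% of tested genes, and above males in IP without overlap for Ep400 and for 0.826%. Both at once occurred in 2 genes (0.0124%), Ep400 and Rab13, and in 0 of 9 partners. In either direction, 0 of 9 partners had separate sexes in IN (2.83% of tested genes), in IP (1.66%) or in the within-pool IP minus IN difference (1.59%), whereas Ep400 had female pools above male pools in the last (0.714%). Rab13, a small GTPase of membrane traffic named here after its values were seen, had 1.07, 1.22, 1.001 and 0.931 scaled TPM in female IP, against 0.894, 0.783, 0.675 and 0.709 in male IP. In IN it had 2.47, 2.62, 2.13 and 2.28 in females, against 3.00, 2.86, 3.42 and 2.80 in males.

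The levels of Ep400 form separate clusters by sex in each fraction, so no correlation with it was tested over pools. As a description over the 8 libraries of a fraction, the partners' Pearson r with Ep400 lay between −0.60 for Ruvbl1 and 0.36 for Brd8 in IP and between −0.43 for Ruvbl1 and 0.42 for Yeats4 in IN. The 5 genes most like Ep400 in IP were Eif2s3x (r = 0.96), Cenpn (0.94), Cep135 (0.93), Iars2 (0.92) and Kcnc2 (0.92). In IN they were Ado (0.98), Sema4g (0.98) and the Y-linked Kdm5d (0.98), Eif2s3y (0.97) and Ddx3y (0.97). These r values largely restate the split by sex: X-linked Eif2s3x averaged 34.1 ± 3.14 scaled TPM in female IP and 21.3 ± 0.718 in male IP, and Ddx3y averaged 0.0109 ± 0.0219 in female IN and 20.6 ± 1.48 in male IN (SD, n = 4 each).

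Some deposited entries lie inside the span of a member. Ep400 contains the small nucleolar RNA Gm26079 on its own strand, with deposited TPM of 0.041 to 2.70 in female IP and 0.987 to 2.86 in male IP, and of 0.094 to 1.03 in female IN and 0.008 to 0.610 in male IN. Its female minus male difference in IN was 0.68 ± 0.37 (SE), opposite in sign to that of Ep400, and its difference between the sexes in IP minus IN was −0.94 (limma adjusted p = 1). Its part in the Ep400 values was not tested. Gm22716, Gm22583 and Mir7026 also lie within the span of Ep400, but did not pass the filter on low values.

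The members were also set against the length of their genes. Ep400 spans 106 kb, Trrap 92.0 kb and Epc1 80.2 kb, and all 3 fall in the longest of 4 equal classes of the 12902 tested protein-coding genes, whose median IP minus IN difference was −0.29. Ing3 (26.5 kb) and Brd8 (26.0 kb) lie in the next class, with a median of −0.11, and so does Ruvbl1 (32.2 kb), which rose. Ruvbl2 (16.3 kb) belongs to a class with a median of 0.02, and Yeats4 (9.29 kb), Dmap1 (7.59 kb) and Kat5 (7.08 kb) to the shortest, with a median of 0.22. Over these genes, Pearson's r between log2 span and the IP minus IN difference was −0.21 and Spearman's rho −0.26, given as a description across genes, which are not independent replicates. By longest coding length, Kat5 and Dmap1, which rose, lay in a class with a median of −0.11. Ing3, which fell, lay with Ruvbl1 and Ruvbl2 in a class with a median of 0.045. Brd8 lay with Ep400, Trrap and Epc1 in the longest class (median −0.24), and Yeats4 in the shortest (median 0.17). For coding length, Pearson's r was −0.19 and Spearman's rho −0.23. The part of span or coding length in the members' values was not tested.

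**Figure D5:**
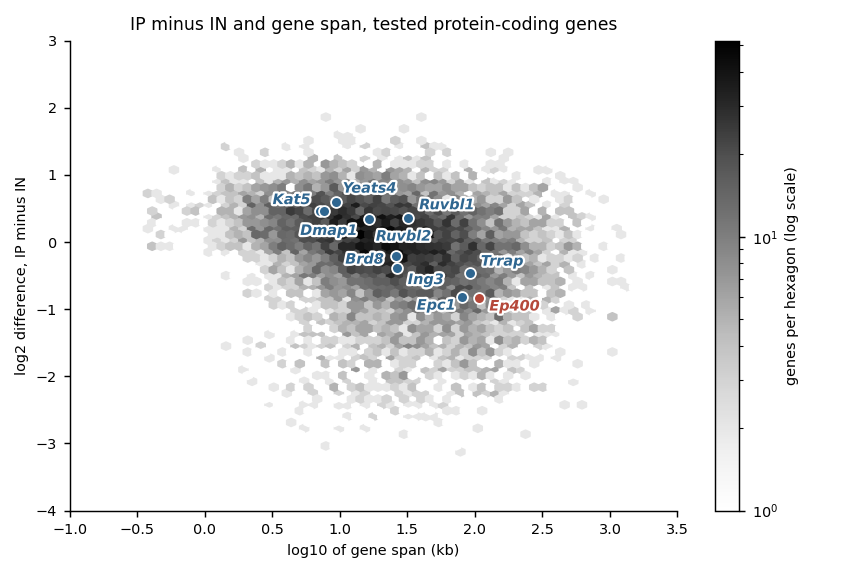
IP minus IN difference (log2, vertical axis) against gene span (log10 of kb, horizontal axis) for tested protein-coding genes as shaded hexagons, with the 10 members as points. The 3 members above 80 kb (Ep400, Trrap and Epc1) lie between −0.83 and −0.46, and the 3 below 10 kb (Kat5, Dmap1 and Yeats4) between 0.46 and 0.60.

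Beyond the members, 74 genes in 8 lists of related complexes were all matched and tested, and 30 were called higher and 33 lower in IP, where 40.5% of all tested genes were higher and 38.9% lower. These shares are near that background, so the counts by list are a description. The list drawn up as other TIP60 subunits had 6 of 9 higher and 3 lower, with a median of 0.20 on the log2 scale. In this list Actl6b, a neuron-specific actin-related protein, rose by 1.07 (21.8 ± 2.16 scaled TPM in IP libraries and 9.86 ± 1.05 in IN libraries, SD, n = 8 each). Morf4l2, an MRG-family subunit, rose by 0.71. Mbtd1, a reader of methylated histone, fell by 1.52 (2.82 ± 0.993 scaled TPM in IP libraries and 9.65 ± 1.13 in IN libraries, SD, n = 8 each) and Mrgbp, the partner of the Morf4l proteins, by 0.76. Of the H2A variants, 2 of 3 were called higher (H2afz and H2afx) and none lower.

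Of the complexes that share the Ruvbl ATPases, SRCAP and INO80 place or move H2A variants and R2TP is a chaperone. In SRCAP, the other H2A.Z-placing complex, 2 of 3 genes rose (Znhit1 by 0.92 and Actr6 by 0.21) while the motor Srcap fell by 0.43. In INO80, 4 of 12 rose and 5 fell, among them Ino80b by 0.50 upward and the motor Ino80 by 0.92 downward, with a median of −0.05. Of the R2TP chaperone partners, 4 of 8 rose and 3 fell, with Znhit3 at 0.53 and Uri1 at −0.54. The motors Srcap and Ino80 were lower in IP, as was Ep400, which was chosen for its own pattern. This grouping was made after the values were seen. With 38.9% of all tested genes called lower, it is no result about motors.

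The lists related to Trrap and Kat5, and the list of other large remodelling motors, gave the following counts. Of all tested genes, 40.5% were called higher in IP and 38.9% lower. In SAGA, the other Trrap complex, 7 of 15 rose and 6 fell, with Supt3 at 0.73 and the acetyltransferase Kat2b at −1.20. Of the other MYST acetyltransferases and their partners, 1 of 10 rose (Kat7, by 0.45) and 7 fell, with Kat6b at −1.40 and Kat6a at −1.12. Among the other large remodelling motors, 4 of 14 rose and 8 fell, with Smarca4 at 0.38, Chd7 at −1.59 and Chd2 at −1.31.

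No gene of these lists was called between the sexes. Of the 74, limma called 0 in IP (5 with an unadjusted p under 0.05), 0 in IN (3) and 0 for the sex by fraction difference (3), and 0 had the crossed order of Ep400. Of all 16099 tested genes, limma called 8 in IP (362 with an unadjusted p under 0.05), 13 in IN (776) and 3 for sex by fraction (448). The crossed order was held by 0.0124% of them. With so few genes called in the whole table, a count of 0 is no result about these lists. The largest sex by fraction differences among the 74 were 0.86 ± 0.50 for Atxn7l3, a SAGA deubiquitination subunit, and 0.71 ± 0.22 for Chd7, a CHD-family remodelling motor (SE; limma adjusted p = 1 for each). Female minus male in IN was −0.63 ± 0.34 for Atxn7l3 and −0.43 ± 0.10 for Chd7 (SE). Atxn7l3 is named here after its values were seen.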

How the data were processed

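RNA of 8 pools of mouse ganglia was depleted of ribosomal RNA and sequenced as IP libraries (pulled-down RNA) and IN libraries (total RNA). The deposited values are TPM, 1 table per library, made by the authors with STAR 2.2.1 and StringTie 1.3.5 on GRCm38.p5, per the submitters' processing notes; each table sums to 1000000. The annotation release, the strand setting and the read depth are not stated, so no counting interval is printed.

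Entries of 1 gene ID were summed. Genes with a mean deposited TPM of at least 1 over the 8 IP or the 8 IN libraries were kept, scaled by the median of ratios and tested as log2(scaled TPM + 1) with limma 3.58.1 (trend, R 4.3.3) and Benjamini-Hochberg adjustment over all tested genes. The 4 comparisons were IP against IN and sex by fraction, both with the pool as a block since the series design takes both RNAs from the same ganglia (correlations of a pool's deviations in IP and IN, 0.0066 to 0.41), and female against male in IP and in IN, without a block. The p-values measure the spread between pools of 3 mice. Gene spans come from the coordinates in the deposited gene names, and the protein-coding class comes from GENCODE M21 on GRCm38. The fits were tested on simulated data. The planned correlation test of partners with Ep400 was not made, since Ep400 splits by sex.

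The members and lists were chosen with earlier results of these data known. Named are all members, at most 4 genes per list by the IP minus IN difference and the 5 genes most like Ep400 in each fraction. Of the entries overlapping a member, those that were tested and those within Ep400 are named. Others are said to be chosen later. Alternatives were other scalings, the pseudocount 0.1, no filter, other blocks and leaving out each pool; values relative to the median gene of deposited TPM were added after seeing the data.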

Additional observations from a re-analysis of the deposited data

Results flagged for a closer look

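The IP minus IN difference of Ep400 differed between the sexes by 0.957 on the log2 scale (female minus male), with the 4 female pools apart from the 4 male pools. Ep400 was included for this pattern, so the value is a description and was not tested.

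Dmap1 in female IN had 1 library far from the other 3 of its group. Pool 1 had 8.96 scaled TPM, against 6.65 to 6.90 in the other pools. This was 1 of 40 groups checked, and chance gives about 1 in 20.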

How the results depend on the processing

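Depth is unknown and 4 pools per sex limit what a sex comparison can show. The number of partners called stayed at 7 to 9 for IP against IN and at 0 for the 3 other comparisons in every alternative run. IP against IN called 12783 genes, and 21311 with no filter on low values. Higher calls were 6514 of 12783, 14623 of 15558 in deposited TPM, 7935 of 12979 with quantile normalization (median gene at 0.15) and 8470 of 21311 with no filter. Female against male in IP called 8 genes, 5 with the replicate number as a block (replicate block) and 5 to 12 with 1 pool left out (5 without female pool 2, male pool 1 or male pool 4); in IN it called 13, 8 with the replicate block and 10 to 13 with 1 pool left out. The numbers did not pair the sexes (correlations −0.30 to 0.10). Sex by fraction called 3 genes, 11 in deposited TPM, 1 with quantile normalization, 0 with no filter (1109 at an unadjusted p under 0.05) and 0 to 6 with 1 pool left out (0 without female pool 3 or male pool 1, 1 without male pool 3, 6 without female pool 2). Causes were not tested. In deposited TPM, Ep400 was at 1.28 for IP minus IN, −0.37 for female minus male in IN and 0.71 for sex by fraction; with 1 pool left out these ran over −0.91 to −0.75, −0.55 to −0.49 and 0.92 to 1.01, and female minus male in IP over 0.39 to 0.51. These ranges include the run without female pool 2, which stood apart. That run gave −0.91 for IP minus IN, the low end of its range. In deposited TPM, IP minus IN reversed for Trrap (1.73), Brd8 (1.86), Epc1 (1.13) and Ing3 (1.39), as the median gene was at 1.84; the median gene was at −0.11 for female minus male in IP and −0.21 for sex by fraction. Relative to that gene Brd8 was at 0.0224 and Trrap at −0.11, and with quantile normalization Ing3 was at 0.00634. The other reversals were among partner sex differences near 0 that passed no test. Female minus male in IP became −0.083 for Kat5 and −0.074 for Epc1 in deposited TPM. Female minus male in IN became −0.0022 for Dmap1 with quantile normalization. Sex by fraction in deposited TPM became −0.22 for Kat5, −0.14 for Brd8, −0.19 for Epc1 and −0.12 for Yeats4. It was −0.0062 for Kat5 with no filter, −0.010 for Kat5 relative to the median gene and −1.6e-05 for Epc1 with quantile normalization. With 1 pool left out, female minus male in IP ran over −0.027 to 0.098 for Kat5, −0.091 to 0.063 for Ruvbl2, −0.033 to 0.080 for Epc1 and −0.080 to 0.068 for Yeats4. In IN it ran over −0.020 to 0.054 for Kat5, −0.038 to 0.13 for Ruvbl2, −0.081 to 0.13 for Dmap1 and −0.035 to 0.064 for Epc1. Sex by fraction ran over −0.0071 to 0.048 for Kat5, −0.064 to 0.10 for Epc1 and −0.42 to 0.12 for Ing3. Over values of single partners and counts of the pathway lists, 675 results under an alternative kept direction and call or, for counts, stayed within 1.5 times. Of the rest, 43 values reversed, 10 lost their call and 27 counts moved by more than 1.5 times. The counts called higher in IP moved in 5 of 14 alternatives for the H2A variants and for the other MYST acetyltransferases. The alternatives of the correlation with Ep400 were not run.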
